A study of Homo sapiens with 15 samples.

Results

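Silver sulfide nanoparticles (Ag2S NPs) doped with lithium were compared with undoped Ag2S NPs at one dose, 160 μg/mL for 24 h, in HaCaT cells. HaCaT cells are immortal keratinocytes of human epidermis. The 6 libraries described here, of 15 in the series, were chosen by their labels alone: LiAg160 replicates 10, 11 and 12 (Li-doped NPs) and Ag160 replicates 4, 5 and 6 (undoped NPs). Untreated cells (control, 3 libraries) give the level of each gene without particles, and the 6 libraries of both particles at 320 μg/mL for 24 h give the same comparison at the higher dose. All 5 groups are HaCaT cells grown in the same medium, and no group received lithium without the particle, so lithium ions and the doped particle cannot be told apart. Separate cultures are not stated for the numbered libraries of a group, and the p-values therefore measure only how far these libraries spread, which may be technical.

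As background, cells that run short of amino acids, or whose endoplasmic reticulum fills with misfolded protein, slow translation and make more of the transcription factor ATF4, which turns on genes that make and import amino acids and charge tRNAs. Interferon-stimulated genes are held at a resting level in keratinocytes by weak signaling through STAT2 and IRF9 and encode antiviral and antigen-presenting proteins. Genes of mitosis are made in dividing cells and are repressed through a promoter element, the cell cycle homology region, when cells leave the cycle. Lithium ions inhibit the kinase GSK3, a brake on Wnt signaling, and phosphatases of inositol phosphates. Keratinocytes at a wound edge secrete EGF receptor ligands and lay down laminin and fibronectin, and TGF-β1 drives the matrix genes for which these particles were studied.

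Values are FPKM (fragments scaled to transcript length and library size), which do not give the number of reads, so depth is unknown and precision rests on the 3 libraries of a group. FPKM summed to between 589969 and 648712 in the 9 libraries at 160 μg/mL and control. Between libraries of one group, Pearson's r over the 11987 genes tested was 0.977 to 0.987. Ag160 replicate 6 lay farthest from the other 2 of its group. Of 7 keratinocyte markers all were listed, with a summed FPKM of 14815 to 16638 in Ag160 and 16511 to 20303 in LiAg160. The summed level of 9 listed fibroblast markers was 7.69 to 7.93 in Ag160 and 2.43 to 4.59 in LiAg160, of 5 endothelial markers 0.41 to 0.81 and 0.15 to 0.35, of 5 immune markers 14.3 to 16.4 and 26.1 to 29.7, and of 5 melanocyte markers 1.93 to 3.05 and 3.07 to 3.37. Of the fibroblast markers, COL1A2 and COL3A1 were at 0 in the 3 LiAg160 libraries, and DPT in the 3 Ag160 libraries but not in all of LiAg160. The endothelial CDH5, PECAM1 and TEK were at 0 in LiAg160, and CLDN5 and PECAM1 in Ag160. CD68, a lysosomal protein that many cells make, held most of the immune sum, with an FPKM of 11.6, 13.8 and 13.9 in Ag160 and 27.1, 25.1 and 27.6 in LiAg160. The part of these shifts in the results was not tested.

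With Li doping at 160 μg/mL, genes of amino acid supply and tRNA charging, most tested EGF receptor ligands and several laminin chains were higher, and interferon-stimulated genes, mitosis genes, genes of lipid synthesis and several metalloproteinases were lower. Genes whose FPKM averaged at least 1 were tested with limma on log2(FPKM + 0.1), a scale that understates the change of low genes, and a gene is called at an adjusted p (Benjamini-Hochberg over all genes) under 0.05. Of 11987 genes, 2563 were higher (21.4%) and 3479 lower (29.0%) with the Li-doped than with the undoped particle, together 50.4%. Past 2-fold as well were 690 higher (5.76%) and 804 lower (6.71%). The 3 LiAg160 libraries lay all above the 3 Ag160 libraries for 23.8% of genes and all below for 31.2%. The median difference of all genes was -0.05, and rescaling the libraries to equal median ratios brought the split to 2816 higher and 3156 lower. Against control, limma called 1373 genes higher and 2847 lower with the undoped particle (11.5% and 23.8%, together 35.2%) and 2715 and 4869 with the doped one (22.6% and 40.6%, together 63.3%). After the median ratio scaling these counts were 1912 and 1683, and 3560 and 3722. Each LiAg160 library was farther from control than each Ag160 library, with median absolute log2 distances of 0.497, 0.475 and 0.53 against 0.25, 0.273 and 0.36. At 320 μg/mL the distances from control were 0.403, 0.371 and 0.554 with the doped and 0.346, 0.371 and 0.376 with the undoped particle, ranges that for the doped particle overlap between the doses. The doses are those of the labels, and no other value in the files checks the dose of the Li-doped groups. In bulk RNA, fewer cells of a kind and less RNA per cell cannot be told apart.

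Promoters of ATF4 targets, interferon-stimulated genes and mitosis genes are shown first, since each list holds a short promoter word in a larger share of its windows than the whole table does, and the results below return to them. They were read in RefSeq windows of 300 bases (250 before and 50 after a gene's start, GRCh38.p14), and each word was sought on both strands. Of the 11987 genes, 9518 matched a window. Capitals mark the word, which appears as its reverse complement where it lies on the other strand. For ATF4 targets and tRNA synthetases the word is the ATF4 composite element TGATGNAA, where N is any base:
ASNS, chr7:97872429-97872516, minus strand: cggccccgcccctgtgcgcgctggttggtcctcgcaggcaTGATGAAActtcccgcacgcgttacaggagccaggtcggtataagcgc
CHAC1, chr15:40953222-40953309, plus strand: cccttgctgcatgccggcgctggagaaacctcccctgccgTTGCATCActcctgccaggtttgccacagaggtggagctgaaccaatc
AARS, chr16:70289646-70289733, minus strand: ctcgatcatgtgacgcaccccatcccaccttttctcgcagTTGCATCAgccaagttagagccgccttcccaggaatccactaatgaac
IARS, chr9:92293698-92293750, minus strand: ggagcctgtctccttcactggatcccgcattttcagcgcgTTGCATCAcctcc
It was in 9 of 46 windows of ATF4 targets (19.6%) and 7 of 21 of tRNA synthetases (33.3%), against 3.62% of all 35093 windows. The share was 1.96% for genes tested and 3.7% (27 of 729 windows) for genes called higher past 2-fold. For interferon-stimulated genes the word is the core of the interferon-stimulated response element, GAAA, any 2 bases and GAAA again:
IFIT3, chr10:89327835-89327924, plus strand: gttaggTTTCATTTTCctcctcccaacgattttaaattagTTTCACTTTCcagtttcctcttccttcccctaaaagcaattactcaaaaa
RSAD2, chr2:6877592-6877681, plus strand: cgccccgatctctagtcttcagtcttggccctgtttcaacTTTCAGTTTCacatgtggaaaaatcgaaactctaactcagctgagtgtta
ISG15, chr1:1013350-1013439, plus strand: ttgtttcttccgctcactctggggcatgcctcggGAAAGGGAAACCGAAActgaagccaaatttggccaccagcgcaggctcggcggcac
It was in 30 of 51 windows of the list (58.8%) and in 3.58% of all windows. The share was 2.84% for genes tested and 6.58% for genes called lower past 2-fold. In IFIT3 and ISG15 more than 1 match is in capitals, and in ISG15 the matches overlap. For genes of mitosis the word is TTTGAA, the cell cycle homology region:
CCNB2, chr15:59105077-59105145, plus strand: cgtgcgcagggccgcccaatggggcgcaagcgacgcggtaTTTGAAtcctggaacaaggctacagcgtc
PLK1, chr16:23678820-23678888, plus strand: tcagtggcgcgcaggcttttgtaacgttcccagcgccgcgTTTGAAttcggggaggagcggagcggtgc
TOP2A, chr17:40418002-40418087, minus strand: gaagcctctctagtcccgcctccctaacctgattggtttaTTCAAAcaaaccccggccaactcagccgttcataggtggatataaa
It was in 23 of 35 windows of mitosis genes (65.7%) and in 15.2% of all windows. The share was 10.2% for genes tested and 18.2% for genes called lower past 2-fold. The printed matches begin 68 (ASNS), 209 (CHAC1), 187 (AARS), 13 (IARS), 122 (IFIT3, the nearer), 145 (RSAD2), 107 (ISG15, the nearer), 29 (CCNB2), 29 (PLK1) and 151 (TOP2A) bases before the RefSeq start of the window. Gene spans printed below are those of GENCODE, which can begin further upstream, and the matches of ASNS and CHAC1 lie inside them. Some matches of genes whose spans are not printed, for example IARS, CCNB2 and ISG15, also lie inside the GENCODE span. A match is a run of letters, not a site shown to be bound in these cells.

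ATF4 targets rose with Li doping more than any other list of 8 or more genes. Of 31 tested, 26 were higher, 3 lower and 2 not called, with a median log2 difference of 1.81 beside -0.05 for all genes. ASNS, which makes asparagine (chromosome 7, 97852118 to 97872542, GRCh38), had an FPKM of 5.97, 7.70 and 7.20 in control, 12, 10.8 and 11.3 in Ag160 and 213, 209.6 and 197 in LiAg160. Every LiAg160 library was thus far above every Ag160 library (log2 difference 4.18, SE 0.10, limma adjusted p = 6.19e-10). CHAC1, a glutathione-degrading enzyme (chromosome 15, 40952962 to 40956519), was at 0.89, 1.21 and 1.25 in control, 1.11, 1.65 and 0.88 in Ag160 and 68.1, 62 and 66.1 in LiAg160 (log2 difference 5.68, SE 0.21, limma adjusted p = 1.08e-08). Ag160 overlapped control for CHAC1 (log2 difference 0.08, not called). Beyond these, PSAT1, of the serine pathway, rose from 30.6, 31 and 32.9 to 407, 413 and 405 (log2 difference 3.69, SE 0.06, limma adjusted p = 6.53e-11). DDIT3, the transcription factor CHOP that acts in prolonged stress, went from 16, 17.9 and 16 to 179, 177 and 144 (log2 difference 3.31, SE 0.10, limma adjusted p = 2.1e-09). It was lower than control with the undoped particle (-0.97) and higher than control with the doped one (2.34). TRIB3, a pseudokinase, stood at 41, 46.2 and 47.7 in Ag160 and 341, 313 and 369.6 in LiAg160 (log2 difference 2.92, SE 0.08, limma adjusted p = 1.8e-09). ATF4 itself rose less, from 260.1, 255 and 253 to 582, 575 and 544 (log2 difference 1.15, SE 0.06, limma adjusted p = 9.26e-08). The 3 members that fell were ATF5 (-1.63) and NUPR1 (-0.81), stress-response regulators, and SLC1A4 (-0.28), an amino acid transporter whose call was lost without LiAg160 replicate 10 (-0.23) or 11 (-0.26) and after median ratio scaling (-0.24).

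Enzymes that charge tRNAs with amino acids were mostly higher as well. Of 20 cytosolic tRNA synthetases tested, 15 were higher, 3 lower and 2 not called, with a median of 0.90. AARS, for alanine, had an FPKM of 66.3, 61.8 and 61.7 in Ag160 and 339.9, 349.8 and 367 in LiAg160 (log2 difference 2.48, SE 0.06, limma adjusted p = 1.2e-09). IARS, for isoleucine, went from 33.8, 29.9 and 28.2 to 166, 187 and 157 (log2 difference 2.47, SE 0.09, limma adjusted p = 9.7e-09), and GARS, for glycine, from 54.1, 54.7 and 67.2 to 255, 234 and 226 (log2 difference 2.03, SE 0.09, limma adjusted p = 3.43e-08). SARS, for serine, rose from 95.7, 89.3 and 96.2 to 261, 260.2 and 270.4 (log2 difference 1.49, SE 0.06, limma adjusted p = 1.4e-08). No LiAg160 library overlapped an Ag160 library for these 4. The 3 that fell, QARS (-0.49), DARS (-0.23) and HARS (-0.20), charge glutamine, aspartate and histidine. The last 2 were no longer called after median ratio scaling (-0.19 and -0.16), nor without any of several single libraries (-0.24 to -0.19 for DARS, -0.22 to -0.19 for HARS). In Ag160 the list was near control, with 2 members higher, 6 lower and a median of -0.08.

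The unfolded protein response moved by smaller amounts, with 19 of 23 genes higher and none lower by limma (median 0.63). HSPA5, the chaperone BiP of the endoplasmic reticulum, had an FPKM of 181, 179.6 and 179 in Ag160 and 453, 441 and 452 in LiAg160 (log2 difference 1.32, SE 0.05, limma adjusted p = 1.69e-08). ERN1, the sensor kinase IRE1, went from 2.22, 2.12 and 1.98 to 10.6, 9.41 and 8.75 (log2 difference 2.13, SE 0.14, limma adjusted p = 6.1e-07), and XBP1, whose mRNA that sensor splices, from 46.3, 50.6 and 58.5 to 126, 131 and 125 (log2 difference 1.31, SE 0.09, limma adjusted p = 9.13e-07). PPP1R15A, which restores translation after stress, rose from 15.8, 16.7 and 13.7 to 64.1, 56.6 and 56.2 (log2 difference 1.93, SE 0.09, limma adjusted p = 6.29e-08). Ribosome biogenesis rose as well, with 29 of 38 members higher, none lower and a median of 0.55. NOP56 and NOP58, of the particles that methylate ribosomal RNA, had log2 differences of 1.5 and 0.96, NOP16 one of 1.34 and the nucleolar MYBBP1A one of 1.53. Of 56 ribosomal protein genes only 12 were higher and 1 lower (median 0.13), a share of 23.2% called that is below the 50.4% of all genes. Many of these have processed copies elsewhere in the genome with which they can share reads.

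**Figure D1:**
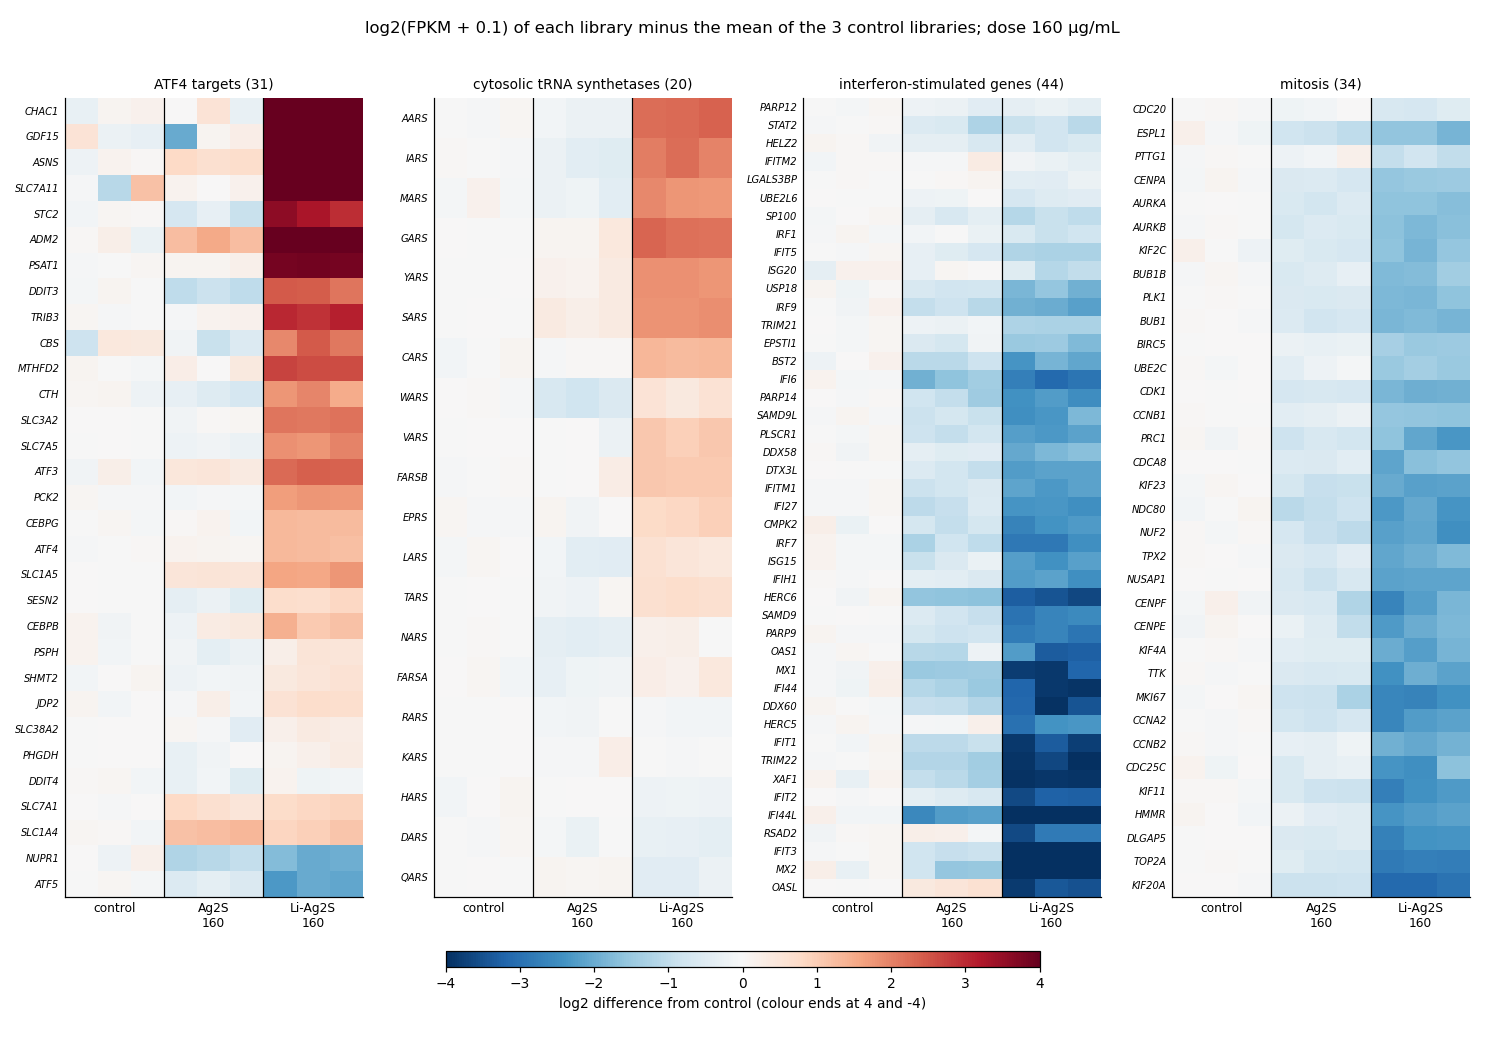
Each row is a gene, each column one of the 9 libraries of control, Ag160 and LiAg160, and the colour is log2(FPKM + 0.1) minus the mean of the 3 control libraries, with colours ending at 4 and -4. The ATF4 targets (31) and tRNA synthetases (20) are mostly red in the LiAg160 columns, and the interferon-stimulated genes (44 of those tested) and mitosis genes (34) are palest in control, pale blue in Ag160 and darkest blue in LiAg160.

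Interferon-stimulated genes fell. Of 45 tested, 42 were lower, none higher and 3 not called, with a median of -1.44. IFIT3, an antiviral protein (chromosome 10, 89327894 to 89340971), had an FPKM of 75.2, 77 and 83.4 in control, 45.4, 41.6 and 43.4 in Ag160 and 3.58, 4.47 and 3.95 in LiAg160 (log2 difference -3.41, SE 0.09, limma adjusted p = 1.28e-09). The groups were fully separate, and the undoped particle lay between control and the doped one. OASL, of the oligoadenylate synthetase family, behaved otherwise in Ag160, where it stood at 43.9, 47 and 51.5, above the 34.1, 33.1 and 33.6 of control, and was at 2.29, 3.14 and 2.91 in LiAg160 (log2 difference -4.05, SE 0.12, limma adjusted p = 1.94e-09). IFIT2 went from 27.6, 25.1 and 23 to 2.88, 3.72 and 3.64 (log2 difference -2.85, SE 0.11, limma adjusted p = 1.86e-08). RSAD2, the antiviral enzyme viperin, was at 22.2, 21.4 and 17.8 in Ag160 and 1.45, 2.54 and 2.55 in LiAg160 (log2 difference -3.21, SE 0.19, limma adjusted p = 3.61e-07). PARP9, an ADP-ribosyltransferase, fell by 2.03 on the log2 scale and ISG15, a ubiquitin-like modifier, by 1.70. The log2 difference of IRF9, one of their regulators, was -1.06. The 3 members not called were HELZ2 (-0.14), PARP12 (-0.05) and STAT2 (-0.12), the last of which was called without Ag160 replicate 6 (-0.34). TNFSF10, the death ligand TRAIL, which interferon also raises, went from 156, 149 and 168 to 13.6, 17.6 and 14.9 (log2 difference -3.36, SE 0.09, limma adjusted p = 1.28e-09). Its mean FPKM was 335 in control and 158 in Ag160, so the undoped particle already lay below control.

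Genes that present antigen on MHC class I were lower too, 14 of 16, with 1 higher and a median of -0.68. PSMB10 and PSMB8, subunits of the immunoproteasome, fell by 2.12 and 1.23 on the log2 scale. TAP1, the peptide transporter, had an FPKM of 63.9, 66.6 and 68.5 in Ag160, close to the 65.1, 65.2 and 67 of control, and 39.5, 37.5 and 44.1 in LiAg160 (log2 difference -0.72, SE 0.07, limma adjusted p = 1.47e-05). ERAP1, which trims peptides, fell by 0.81. The member that rose was NLRC5 (0.80), itself an activator of MHC class I genes, and its call was lost without Ag160 replicate 6 (0.47) or LiAg160 replicate 10 (0.82) or 11 (0.63).

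All 34 genes of mitosis were lower with the Li-doped particle, by log2 differences of -2.21 to -0.51 and a median of -1.28. KIF20A, a motor of cytokinesis, had an FPKM of 42.5, 41.9 and 40.5 in control, 22.9, 23 and 23.5 in Ag160 and 4.76, 4.77 and 5.30 in LiAg160 (log2 difference -2.21, SE 0.08, limma adjusted p = 1e-08). TOP2A, the topoisomerase of condensing chromosomes, stood at 81.6, 85.7 and 82.2 in control, 60.0, 51.1 and 50.3 in Ag160 and 11.6, 12.3 and 12.1 in LiAg160 (log2 difference -2.15, SE 0.08, limma adjusted p = 1.09e-08). CCNB2, a mitotic cyclin, went from 63.8, 62.8 and 70.8 in Ag160 to 21, 19.5 and 21.5 in LiAg160 (log2 difference -1.67, SE 0.07, limma adjusted p = 4.1e-08), and NUSAP1, a spindle protein, from 63, 54.9 and 63.3 to 22.2, 22.9 and 23 (log2 difference -1.40, SE 0.07, limma adjusted p = 1.01e-07). PLK1, the mitotic kinase whose promoter is printed above, fell by 1.15. In every one of the 5 the order was control, Ag160, LiAg160 with no overlap. The undoped particle was already below control for 29 of the 34 genes (median -0.60).

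DNA replication genes split more. Of 38, 25 were lower, 1 higher and 12 not called (median -0.57). MCM5, of the replicative helicase, went from 19.5, 15.9 and 16.5 in Ag160 to 4.05, 5.14 and 5.76 in LiAg160 (log2 difference -1.79, SE 0.14, limma adjusted p = 1.79e-06). RRM1, of ribonucleotide reductase, fell by 1.43 on the log2 scale, TK1, a thymidine kinase, by 1.30 and GINS3, a helicase cofactor, by 1.05. The member that rose was CDC6 (0.52), a licensing factor, a call lost without Ag160 replicate 4 (0.47) or LiAg160 replicate 10 (0.41). Of 23 p53 targets 9 were higher and 8 lower. CDKN1A, the cell cycle inhibitor p21, went from 197, 209 and 199 to 358, 339.9 and 374 (log2 difference 0.82, SE 0.06, limma adjusted p = 1.53e-06), while DDB2, of DNA repair, fell by 1.42 and TP53I3 by 1.70.

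Most ligands of the EGF receptor rose. Of 7 listed, 5 were tested, of which AREG, HBEGF, TGFA and EREG rose and EPGN was not called (0.58). EREG averaged 0.65 FPKM in control and 0.88 in Ag160. It thus passed the level filter only through LiAg160 and had to be higher there. Of all 9 tested genes of the ligands and receptors of this family, 6 were higher, 1 not called and 2 lower, the receptors ERBB2 (-0.57) and ERBB3 (-0.91). AREG, amphiregulin, had an FPKM of 3.86, 4.57 and 4.50 in control, 13.8, 16.3 and 15.8 in Ag160 and 201, 173 and 143 in LiAg160 (log2 difference 3.47, SE 0.13, limma adjusted p = 1.03e-08). HBEGF, heparin-binding EGF, was at 9.02, 9.86 and 8.43 in control, 8.30, 9.24 and 8.55 in Ag160 and 78.9, 67.8 and 64.4 in LiAg160 (log2 difference 3.0, SE 0.10, limma adjusted p = 6.37e-09). AREG had thus already risen with the undoped particle, and HBEGF was not called there (log2 difference from control 1.80 and -0.06). The annotation behind the FPKM is not stated, and if it held a second copy of AREG, reads could be shared with it. EREG, epiregulin, rose by 3.08, TGFA by 1.69 and EGFR itself by 1.17. NRG1, neuregulin, a ligand of ERBB3 and ERBB4, rose by 2.15. Of 19 genes that follow or dampen ERK signaling, 15 were higher and 1, the ephrin receptor EPHA4 (-2.28), lower. FOSL1, an AP-1 subunit, went from 14.1, 14.8 and 13.2 to 87.1, 70.5 and 68.4 (log2 difference 2.41, SE 0.10, limma adjusted p = 3.3e-08). PHLDA1 went from 6.45, 5.80 and 4.80 to 49, 47.5 and 46 (log2 difference 3.05, SE 0.11, limma adjusted p = 1.03e-08). MYC, which drives growth, was at 41.1, 39.8 and 36.2 in control, 26.6, 28 and 22.8 in Ag160 and 125, 106 and 107 in LiAg160 (log2 difference 2.13, SE 0.10, limma adjusted p = 5.13e-08), so the particles lay on opposite sides of control. IER3 rose by 1.94. Of 11 AP-1 subunits 8 were higher and none lower, and of 15 YAP targets 11 were higher and 1 lower. F3, tissue factor, was the YAP target with the largest rise, from 36.1, 35.2 and 20.2 to 262, 246 and 154 (log2 difference 2.86, SE 0.23, limma adjusted p = 2.9e-06).

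Cytokine genes went in both directions, 6 of 23 tested (32 listed) higher and 8 lower. The share called was 60.9%, beside 50.4% of all genes. CCL2, a chemokine for monocytes (chromosome 17, 34255218 to 34257203), fell further than any other gene tested. Its FPKM was 73.5, 71.1 and 76.5 in control, 90.4, 95.4 and 106 in Ag160 and 0.63, 0.60 and 0.66 in LiAg160 (log2 difference -7.06, SE 0.09, limma adjusted p = 3.52e-12). Ag160 was thus slightly above control, and LiAg160 far below both. CCL7, its neighbour gene and a chemokine of the same family, was at 10.8, 8.15 and 11.9 in Ag160 and 0, 0.19 and 0 in LiAg160 (log2 difference -6.17, SE 0.42, limma adjusted p = 8.83e-07). IL1A, an epithelial alarmin, and the cytokine IL1B rose instead. IL1A was at 1.10, 1.19 and 1.15 in control, 4.29, 4.39 and 4.24 in Ag160 and 50.3, 49.7 and 40.9 in LiAg160 (log2 difference 3.41, SE 0.12, limma adjusted p = 8.89e-09). IL1B was at 2.98, 2.71 and 3.57 in control, 6.39, 7.25 and 6.20 in Ag160 and 51.9, 57.1 and 48.4 in LiAg160 (log2 difference 2.97, SE 0.12, limma adjusted p = 2.95e-08). Both thus rose in steps from control over Ag160 to LiAg160. CXCL8, a chemokine for neutrophils, was lowest in Ag160, at 2.91, 2.52 and 2.83 against 5.93, 4.98 and 5.93 in control, and 11.1, 10.1 and 9.65 in LiAg160 (log2 difference 1.86, SE 0.13, limma adjusted p = 1.02e-06). IL13RA2, a decoy receptor for IL-13, fell from 6.40, 5.03 and 4.19 to 0.43, 0.38 and 0.28 (log2 difference -3.51, SE 0.26, limma adjusted p = 1.61e-06).

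**Figure D2:**
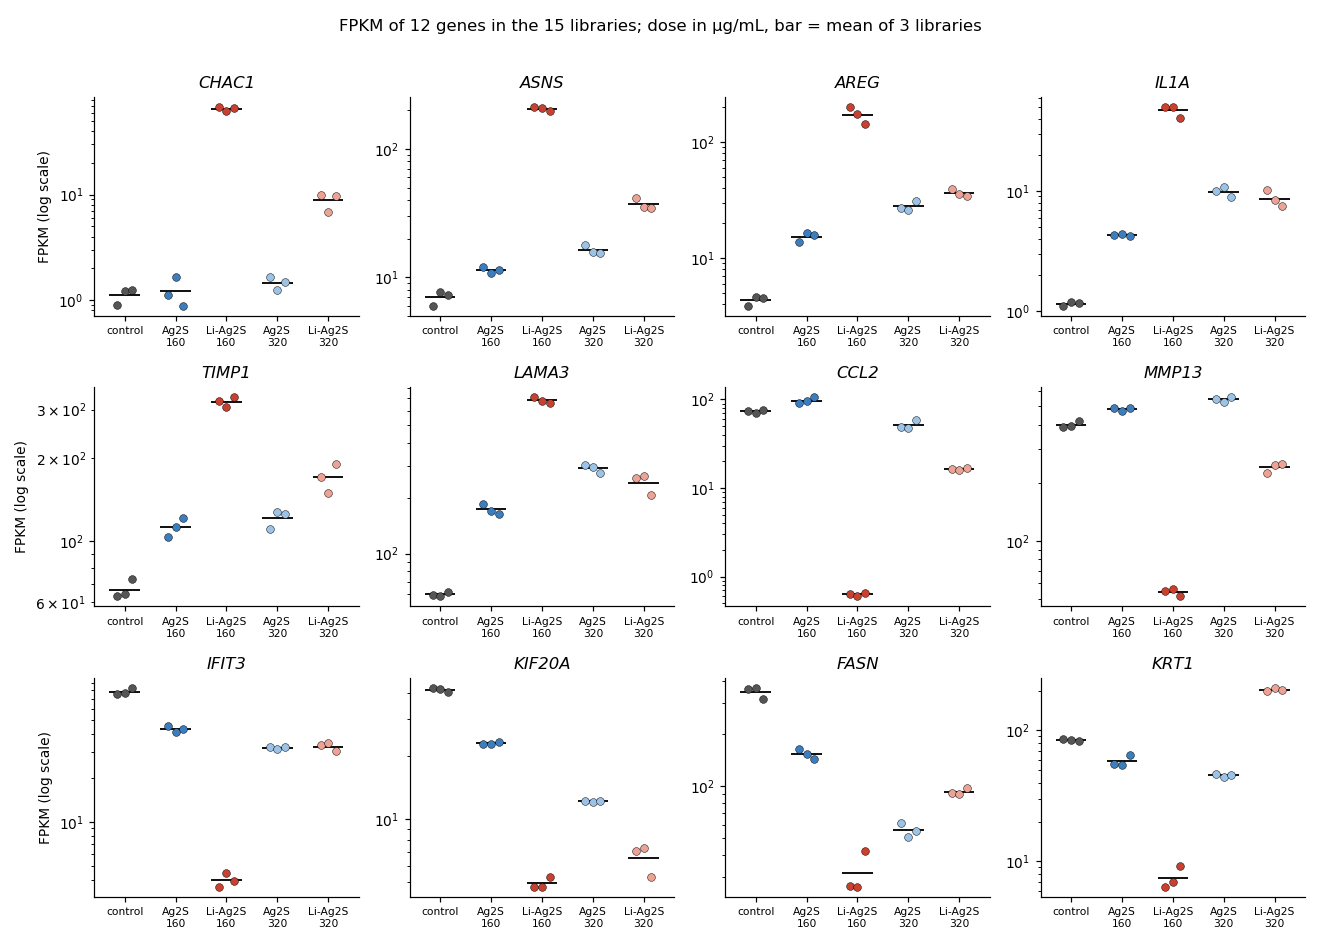
Each panel gives the FPKM of 1 gene on a log axis in each of the 15 libraries (points) with the mean of the 3 libraries of a group (bar), and the axis below names the particle and its dose in μg/mL. In each of the 12 panels the 3 LiAg160 points stand apart from the 3 Ag160 points, above them for CHAC1, ASNS, AREG, IL1A, TIMP1 and LAMA3 and below them for CCL2, MMP13, IFIT3, KIF20A, FASN and KRT1.

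The matrix genes for which these particles were studied did not move as one. TGFB1, the ligand TGF-β1 (chromosome 19, 41301587 to 41353911), had an FPKM of 25.4, 24.6 and 22.7 in control, 44.2, 51.6 and 46.9 in Ag160 and 77, 64 and 85.7 in LiAg160, and rose with doping (log2 difference 0.66, SE 0.11, limma adjusted p = 0.000447). TIMP1, an inhibitor of matrix metalloproteinases (chromosome X, 47582313 to 47586789), was at 63.1, 64.1 and 72.8 in control, 103, 113 and 121 in Ag160 and 322, 307 and 332 in LiAg160, again in separate steps (log2 difference 1.51, SE 0.08, limma adjusted p = 1.31e-07). COL1A1, a chain of type I collagen (chromosome 17, 50183289 to 50201632), was at 6.70, 7.01 and 5.54 in control, 24.7, 23.4 and 17.3 in Ag160 and 17.3, 21 and 20.6 in LiAg160. Its Ag160 and LiAg160 libraries overlapped, and the difference of -0.14 (95% interval -0.47 to 0.19, limma adjusted p = 0.468) was not called. TGM2, a transglutaminase that cross-links matrix proteins, was at 0.58, 0.84 and 1.11 in control, 45.8, 40 and 42.5 in Ag160 and 16, 14.3 and 18.2 in LiAg160 (log2 difference -1.40, SE 0.19, limma adjusted p = 0.000117). Both particles raised it above control, the undoped one more.

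The study drew up its list of 19 matrix genes on this series and showed it for the 320 μg/mL libraries, which share their controls with those at 160 μg/mL, so it is no independent evidence of a direction against control. Of the 19, 18 were tested, 9 were higher, 4 lower and 5 not called (median 0.41). LAMA3, a chain of the basement membrane laminin that anchors keratinocytes, had the largest rise among them, with an FPKM of 59.5, 58.5 and 61.8 in control, 187, 171 and 164 in Ag160 and 709, 678 and 660.3 in LiAg160 (log2 difference 1.97, SE 0.07, limma adjusted p = 5.9e-09). LAMB3, also a laminin chain, rose by 0.42. TNC, tenascin C of healing wounds, went from 22.3, 17.2 and 14.8 to 58.8, 66.5 and 62.8 (log2 difference 1.80, SE 0.23, limma adjusted p = 7.26e-05) and FN1, fibronectin, from 104, 93.6 and 74.8 to 216, 251 and 221 (log2 difference 1.34, SE 0.11, limma adjusted p = 3.45e-06). ENTPD2, which degrades extracellular ATP, rose by 1.44, COL5A1 by 0.66 and LOXL1, of collagen cross-linking, by 0.52, the last a call lost without Ag160 replicate 4 (0.40) or LiAg160 replicate 12 (0.45). AMTN, amelotin of the tooth and junctional epithelium, fell from 24.7, 27.5 and 24.6 to 1.72, 0.51 and 1.21 (log2 difference -4.50, SE 0.32, limma adjusted p = 1.11e-06), below the 4.02, 4.37 and 3.25 of control. TGFBI, a matrix protein induced by TGF-β, fell by 0.94 on the log2 scale, and the basement membrane collagens COL4A1 and COL4A2 by 0.61 and 0.81. Not called beside COL1A1 were SPARC (-0.50), COL18A1 (-0.25), COL7A1 (0.41) and COL4A6 (0.12). COL7A1 was at 177, 177 and 90.4 in Ag160 and 223, 244 and 122 in LiAg160, with 1 low library in each group, and was called without the low LiAg160 library, replicate 12 (0.72). COL18A1 was called without Ag160 replicate 6 (-0.37), and SPARC without control replicate 1, which enters only the spread (-0.50). Against control 17 of the 18 were higher with the undoped particle and 16 with the doped one.

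**Figure D3:**
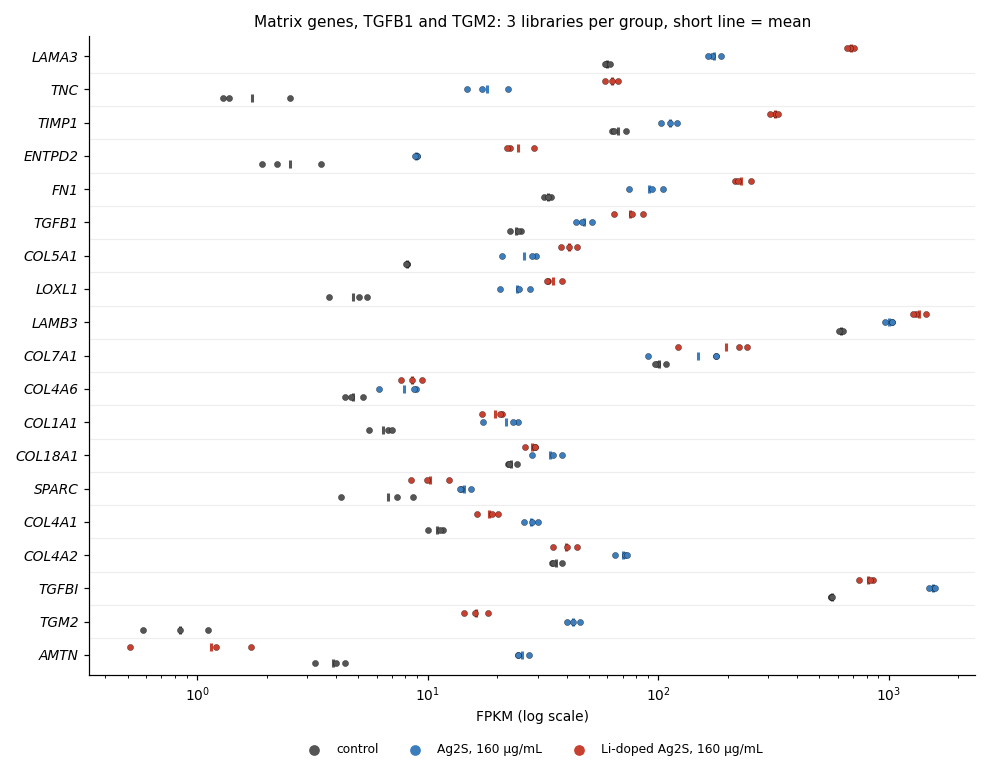
FPKM on a log axis of 17 of the 18 tested matrix genes of the study, TGFB1 and TGM2, ordered by the difference between the particles, with 3 libraries (points) and their mean (line) for control, Ag160 and LiAg160. LAMA3 at the top lies furthest above Ag160 and AMTN at the bottom furthest below, and the points of Ag160 and LiAg160 overlap for COL7A1, COL4A6, COL1A1 and COL18A1.

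Targets of TGF-β split likewise. Of 29 tested 15 were higher and 8 lower (median 0.29), while all 25 called against control were higher with the undoped particle. THBS1, thrombospondin, which activates latent TGF-β, went from 18.5, 17.8 and 10.8 to 166, 179 and 162 (log2 difference 3.46, SE 0.19, limma adjusted p = 2.05e-07), and SERPINE2, a protease inhibitor, from 115, 116 and 117 to 419, 414 and 433 (log2 difference 1.86, SE 0.06, limma adjusted p = 5.58e-09). Of 12 ligands, receptors and SMADs, TGFB1 and SMAD7, the inhibitor that TGF-β induces (0.53), were higher, SMAD6, an inhibitor of BMP signals (-0.74), and TGFBR1, a receptor (-0.29), lower, and 8 not called. The share of these 12 called was 33.3%, beside 50.4% of all genes. The call of TGFBR1 was lost without any of 8 of the 9 libraries (-0.31 to -0.21). ITGB6, a subunit of the integrin that releases TGF-β from its latent form, went from 116, 102 and 87.8 in Ag160 to 18.1, 19.2 and 18.2 in LiAg160 (log2 difference -2.44, SE 0.09, limma adjusted p = 1.49e-08) and was at 37.9, 39.1 and 40 in control, so the particles lay on opposite sides of control. ID3, a target of BMP signals, fell by 1.95.

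Some metalloproteinases that degrade matrix fell far, though their list as a whole had no single direction. MMP13, a collagenase, had an FPKM of 391, 393 and 418 in control, 490.3, 472 and 490.1 in Ag160 and 54.7, 55.8 and 51.4 in LiAg160 (log2 difference -3.16, SE 0.06, limma adjusted p = 1.08e-10). MMP7, matrilysin, went from 7.73, 7.44 and 11 to 0.25, 0.39 and 0.11 (log2 difference -4.72, SE 0.29, limma adjusted p = 4.22e-07), and MMP12, an elastase, from 7.05, 7.52 and 7.62 to 0.15, 0.37 and 0.35 (log2 difference -4.32, SE 0.23, limma adjusted p = 1.29e-07). All 3 were thus lower with doping in every library. Mean FPKM in control and Ag160 was 6.22 and 8.73 for MMP7, and 19.6 and 7.40 for MMP12. Of their inhibitors, TIMP2 went from 11.2, 10.1 and 10.4 to 34.6, 34 and 37.3 (log2 difference 1.73, SE 0.09, limma adjusted p = 1.38e-07). Of 19 metalloproteinases and inhibitors 7 were higher and 7 lower (median 0.015). The members named here were chosen by smallest p or largest fall and do not stand for the list. In the plasminogen system 5 of 9 were higher and 3 lower. PLAUR, the urokinase receptor, rose by 1.49 and SERPINB2, an inhibitor of plasminogen activators, by 1.54, while PLAU, urokinase, fell by 0.52 on the log2 scale. Among 16 collagen chains, of 26 listed, 2 were higher and 7 lower. Their share called, 56.2%, was near the 50.4% of all genes, of which 29.0% were lower. Among 18 genes of collagen modification 7 were higher and 6 lower (72.2% called). SERPINH1, the collagen chaperone, and BMP1, which cleaves procollagen, fell by 0.81 and 0.64, and P4HB and PPIB, helpers of collagen folding that act on other proteins too, rose by 0.96 and 0.62.

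Keratinocyte genes moved in both directions. KRT15, a keratin of basal and stem cells, went from 1889, 2020.0 and 2251 in Ag160 to 264, 319.7 and 244 in LiAg160 (log2 difference -2.90, SE 0.10, limma adjusted p = 9.7e-09), and the basal keratin KRT5 fell by 0.74 on the log2 scale. KRT17, a keratin of activated epidermis, was at 568, 578 and 615 in control, 2565, 2818 and 2905 in Ag160 and 6921, 7100.0 and 8693 in LiAg160 (log2 difference 1.45, SE 0.10, limma adjusted p = 7.78e-07). Of 20 genes of the activated state 11 were higher and 7 lower, the latter with S100A7 (-3.12) and S100A8 (-2.53), calcium-binding proteins of inflamed skin. KRT1, a keratin of the spinous layer, was at 86.2, 84.3 and 83.2 in control, 55.3, 54.1 and 65.5 in Ag160 and 6.41, 6.92 and 9.22 in LiAg160 (log2 difference -2.95, SE 0.13, limma adjusted p = 3.18e-08), and IVL, involucrin, fell by 2.27. Of 29 genes of the cornified envelope and late differentiation only 12 passed the level filter, 5 of them higher and 5 lower. SPRR2D, a cornified envelope precursor, went the other way, with an FPKM of 0.13, 0 and 0 in Ag160 and 15.6, 12.3 and 11.7 in LiAg160 (log2 difference 6.64, SE 0.43, limma adjusted p = 6.1e-07). LCE1F, of the late cornified envelope, was listed at 0 in all control and Ag160 libraries and at 4.64, 7.13 and 6.07 in LiAg160. PRR9, of the same gene complex, went from 0.08, 0.11 and 0.08 to 8.95, 6.75 and 8.96 (log2 difference 5.44, SE 0.42, limma adjusted p = 1.94e-06). SPRR2D, LCE1F and PRR9 passed the level filter only through LiAg160 and had to be higher there, so their p-values are no evidence of a direction. SPRR2D is among the 5 counted as higher. SPRR and LCE genes have close paralogs with which they can share reads, and the size of a difference near 0 depends on the added 0.1. Of 19 epithelial transcription factors 6 were higher and 9 lower. ELF3, SOX2 and GATA3 fell by 2.91, 2.49 and 2.32, and KLF4 rose by 1.37.

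Lipid synthesis was lower with doping. Of 17 genes of fatty acid synthesis 12 were lower and 1 higher (median -0.58), and of 25 of cholesterol synthesis and uptake 15 were lower and 1 higher (median -0.61). FASN, fatty acid synthase, had an FPKM of 361, 367 and 315 in control, 163, 153 and 143 in Ag160 and 26.5, 26.3 and 42.2 in LiAg160 (log2 difference -2.31, SE 0.16, limma adjusted p = 8.22e-07), with LiAg160 replicate 12 above the other 2. SCD, stearoyl-CoA desaturase, went from 1400.5, 1314 and 1294 to 241, 286 and 283 (log2 difference -2.31, SE 0.08, limma adjusted p = 5.9e-09), and SREBF1, a transcription factor of lipid synthesis, fell by 1.61. INSIG1 and SC5D fell by 1.49 and 1.47. The exceptions that rose were FADS3 (1.80), of the desaturase family, and SQLE (0.27), squalene epoxidase, whose call was lost without Ag160 replicate 5 (0.27) or LiAg160 replicate 11 (0.19).

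Glucose use and oxygen response genes were mostly higher, 22 of 31 with 2 lower (median 0.48). SLC2A3, a glucose transporter, went from 0.36, 0.35 and 0.19 to 15.8, 12.1 and 12.4 (log2 difference 5.10, SE 0.35, limma adjusted p = 8.51e-07), EGLN3, an oxygen sensor, from 1.24, 2.05 and 1.61 to 14.9, 17.7 and 15.6 (log2 difference 3.24, SE 0.19, limma adjusted p = 2.58e-07), and NDRG1 from 251, 265 and 238 to 1013, 933 and 979 (log2 difference 1.96, SE 0.06, limma adjusted p = 5.33e-09). ENO2 and PFKP, of glycolysis, rose by 1.97 and 1.17. SLC2A3, at a mean of 0.20 in control and 0.30 in Ag160, passed the level filter only through LiAg160 and had to be higher there. Of 42 nuclear genes of the respiratory chain 28 were lower and none higher (median -0.35). Of 31 proteasome subunits 13 were lower and 4 higher, or 9 and 4 after median ratio scaling (median -0.115, or -0.074 scaled). Their share called, 54.8%, was near the 50.4% of all genes.

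Oxidative stress genes leaned higher but did not all follow 1 direction. Of 32 NRF2 targets 16 were higher, 5 lower and 11 not called (median 0.27 beside -0.05 for all genes). The share called was 65.6%, beside 50.4% of all genes. SRXN1, sulfiredoxin, had an FPKM of 34.1, 34.5 and 33.3 in control, 47.7, 47.8 and 52.6 in Ag160 and 285, 284 and 266 in LiAg160 (log2 difference 2.49, SE 0.06, limma adjusted p = 1.2e-09). FTL, ferritin light chain, went from 1432, 1536 and 1670.1 to 4531, 4281 and 4170.1 (log2 difference 1.49, SE 0.08, limma adjusted p = 1.89e-07), NQO1, a quinone reductase, from 188, 187 and 225 to 528, 504 and 512 (log2 difference 1.37, SE 0.08, limma adjusted p = 1.87e-07), and OSGIN1 rose by 2.16. HMOX1, heme oxygenase, rose by 1.71. Among heat shock genes 9 of 21 were higher and 5 lower, 66.7% called beside 50.4% of all genes. HSPB1, the small chaperone HSP27, was at 1664, 1629.6 and 1500.3 in control, 2549, 3381 and 3206 in Ag160 and 1221, 1078 and 1181 in LiAg160 (log2 difference -1.38, SE 0.11, limma adjusted p = 2e-06), and HSPA8, a constitutive chaperone, rose by 1.06. CYP1A1 and CYP1B1, targets of the aryl hydrocarbon receptor, rose by 3.03 and 2.0, while ALDH3A1, another, went from 61.6, 63.6 and 69.8 to 4.26, 3.66 and 5.19 (log2 difference -3.88, SE 0.11, limma adjusted p = 2.1e-09). CYP1A1 averaged 0.09 FPKM in control and 0.37 in Ag160. It passed the level filter only through LiAg160 and had to be higher there.

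Metallothioneins, small proteins that bind silver, zinc and copper ions, were lower with the Li-doped particle or not called. MT1X had an FPKM of 344, 362 and 376 in control, 448, 537 and 517 in Ag160 and 241, 224 and 203 in LiAg160 (log2 difference -1.17, SE 0.09, limma adjusted p = 1.48e-06), above control with the undoped and below control with the doped particle. MT1E went from 446, 512 and 640.1 to 361, 306 and 236 (log2 difference -0.83, SE 0.15, limma adjusted p = 0.0011), and MT1F from 30.3, 40.8 and 40.2 to 30.7, 24.7 and 17.7 with overlapping libraries (log2 difference -0.63, SE 0.18, limma adjusted p = 0.0137). MT2A, the most abundant, was at 1226, 1442 and 1356 in Ag160 and 1267, 1080.4 and 844 in LiAg160, again with an overlap (log2 difference -0.35, SE 0.13, limma adjusted p = 0.0382), and its call was lost without any of 7 of the 9 libraries (-0.37 to -0.19) and after median ratio scaling (-0.31). MT1F was no longer called without Ag160 replicate 5 (-0.56). MT1G was not called, at 2.03, 0.71 and 0 in Ag160 and 2.90, 2.36 and 4.53 in LiAg160 (log2 difference 2.54, SE 1.12, limma adjusted p = 0.0823), and was called without Ag160 replicate 4 (3.51) or control replicate 2 (2.54). MT1DP, a pseudogene of the cluster, was listed at 0 in the 3 LiAg160 libraries and at 11.3, 3.51 and 4.72 in Ag160. These genes are close copies of each other, so reads can be shared between them. Of the other genes of zinc handling, MTF1, their transcription factor, rose by 0.41 (0.39 and not called without LiAg160 replicate 11), and the transporters SLC30A1 (0.10) and SLC39A10 (-0.38; -0.66 and called without LiAg160 replicate 11) were not called.

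Genes for enzymes that lithium is known to inhibit, and for inositol supply, differed in both directions. Of 15 genes of GSK3, inositol phosphatases and inositol supply 3 were higher, 4 lower and 8 not called (median -0.13), 46.7% called beside 50.4% of all genes. GSK3B had an FPKM of 38, 33 and 32.8 in Ag160 and 43.9, 43.7 and 43 in LiAg160 (log2 difference 0.33, SE 0.09, limma adjusted p = 0.0107), and GSK3A was not called (-0.13, 95% interval -0.32 to 0.07). The inositol monophosphatases IMPA1 (-0.07) and IMPA2 (-0.18) were not called, while INPP1 fell by 0.57 and BPNT1, another phosphatase that lithium inhibits, by 0.42. FBP1, a lithium-sensitive enzyme of gluconeogenesis, fell by 0.99 and CDIPT, which makes phosphatidylinositol, by 0.46. IMPAD1 rose by 0.33 and the inositol importer SLC5A3 by 0.72. Both calls were lost when 1 library was left out, IMPAD1 without Ag160 replicate 5 (0.29), SLC5A3 without Ag160 replicate 6 (0.58) or LiAg160 replicate 11 (0.68) or 12 (0.66). The others were not called, namely SLC2A13 (0.81), ISYNA1 (0.07), PGM1 (-0.22), PGM2 (-0.10) and PI4KA (-0.13), though SLC2A13 was called without Ag160 replicate 4 (1.01) or LiAg160 replicate 11 (0.97).

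Of 25 listed Wnt targets and components 15 passed the level filter, 6 of them higher and 6 lower (median -0.23). AXIN2, the standard feedback target of Wnt signaling, was too low to test, with an FPKM of 0.04, 0 and 0 in Ag160 and 0.02, 0.09 and 0.06 in LiAg160. Of the feedback inhibitors, DKK1 was at 41.1, 38.9 and 44.9 in control, 11.8, 8.74 and 10.4 in Ag160 and 31.1, 25.1 and 20.9 in LiAg160 (log2 difference 1.30, SE 0.15, limma adjusted p = 3.54e-05), a rise toward the control level, and APCDD1 fell from 16.7, 13.7 and 18.5 to 4.10, 4.99 and 3.77 (log2 difference -1.90, SE 0.21, limma adjusted p = 3.13e-05). RNF43, a ligase that removes Wnt receptors, rose by 1.27 at a low level, a call lost without Ag160 replicate 5 (0.87) or LiAg160 replicate 10 (1.04) or 12 (1.17), and its relative ZNRF3 was not called (0.35). CTNNB1, β-catenin, rose by 0.79, CCND1 by 0.28, AXIN1 by 0.47 and, as given above, MYC by 2.13. LGR4 and FZD7, receptors, fell by 0.86 and 0.81, SFRP1 and DKK3, secreted inhibitors, by 0.73 and 0.23, and BAMBI by 1.04. DKK3 was not called without LiAg160 replicate 10 (-0.19) or after median ratio scaling (-0.19). TCF7L2 (-0.59) and APC (-0.34) were not called, and the former was called without Ag160 replicate 6 (-0.97).

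Retinoid genes were mostly lower, 10 of 14 tested (20 listed) with 1 higher (median -0.61). RDH16, a retinol dehydrogenase, was at 0.80, 0.88 and 0.90 in control, 10.5, 11.7 and 10.9 in Ag160 and 0.64, 1.58 and 1.42 in LiAg160 (log2 difference -3.17, SE 0.28, limma adjusted p = 5.78e-06), so that it rose above control with the undoped particle and was not called against control with the doped one. STRA6, the retinol importer, went from 7.18, 7.85 and 6.09 to 0.58, 0.80 and 0.83 (log2 difference -3.10, SE 0.16, limma adjusted p = 1.2e-07), and DHRS3, which removes retinal, from 59.8, 63.6 and 62.3 to 9.25, 8.06 and 9.39 (log2 difference -2.79, SE 0.07, limma adjusted p = 1.28e-09). The member that rose was the receptor RARA (1.12).

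The other genes among the 15 largest rises with a mean FPKM of at least 5 in LiAg160 follow. For 12 of the 15, control and Ag160 averaged under 1 FPKM, so that they passed the level filter only through LiAg160 and had to be higher there. GDF15, a stress-induced hormone of the TGF-β family, had an FPKM of 0, 0.33 and 0.38 in Ag160 and 16.4, 10.1 and 10.8 in LiAg160 (log2 difference 5.48, SE 0.55, limma adjusted p = 1.44e-05). L1CAM, an adhesion molecule of neurons and migrating cells, was at 0.33, 0.24 and 0.55 in control, 1.47, 1.5 and 1.46 in Ag160 and 38.8, 39.3 and 40.8 in LiAg160 (log2 difference 4.66, SE 0.22, limma adjusted p = 6.29e-08), and CDH4, a cadherin of the retina, went from 0.31, 0.27 and 0.32 to 10.8, 8.66 and 10.7 (log2 difference 4.66, SE 0.23, limma adjusted p = 8.3e-08). KIF21B, a kinesin, rose by 4.74, NEURL1, a ubiquitin ligase, by 5.09, SH2D5, an adaptor protein, by 4.30, SLCO4A1, an organic anion transporter, by 4.76 and DHRS2, a reductase, by 4.27. RPLP0P2 (5.09) is a pseudogene that can share reads with RPLP0, and AC010323.1 (4.45) varied between libraries, at 0, 3.34 and 0 in Ag160 and 4.36, 17.4 and 4.55 in LiAg160 (log2 difference 4.45, SE 1.70, limma adjusted p = 0.0489), and was not called without any of 6 of the 9 libraries (3.60 to 4.79), with no filter or robust eBayes (4.45 in both), with a pseudocount of 1 (2.33) or with arrayWeights (2.00). Among the falls SLURP2, a secreted receptor ligand of keratinocytes that overlaps another gene of its locus, went from 9.18, 10.8 and 14.5 to 0.42, 0.41 and 0.21 (log2 difference -4.71, SE 0.22, limma adjusted p = 6.36e-08). C10orf99, an antimicrobial peptide of epithelia, fell by 3.44 on the log2 scale and PDZK1IP1 by 3.41.

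Members of the remaining lists moved in both directions. Of 35 genes of lysosomes and autophagy 8 were higher and 13 lower, of 28 of cell junctions 7 and 11, of 24 of actin and contraction 10 and 4, of 14 of the Notch pathway 1 and 4, and of 14 of the epithelial-mesenchymal transition 6 and 5. Their medians were between -0.15 and 0.03. In that order 60.0%, 64.3%, 58.3%, 35.7% and 78.6% were called, beside 50.4% of all genes. Of 15 laminins and integrins 8 were higher and 4 lower (median 0.33), of 14 BMP targets 3 and 7 (median -0.35), and of 14 genes often used as references 6 and 5 (median 0.06). The shares called were 80.0%, 71.4% and 78.6%. DCN and LUM, proteoglycans that mark fibroblasts, were low throughout and fell. DCN was at 5.99, 6.16 and 9.09 in control, 2.25, 2.42 and 1.78 in Ag160 and 0, 0 and 0.22 in LiAg160 (log2 difference -3.92, SE 0.43, limma adjusted p = 2.72e-05). LUM was at 5.37, 4.36 and 5.84 in control, 1.61, 2.49 and 1.58 in Ag160 and 0, 0.12 and 0 in LiAg160 (log2 difference -3.91, SE 0.36, limma adjusted p = 8.31e-06). The size of both falls depends on the added 0.1. TWIST2, the other fibroblast marker tested, was not called, with a mean of 3.03 in Ag160 and 2.90 in LiAg160 (log2 difference -0.07).

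The 690 higher and 804 lower genes had a median longest transcript of 3335 and 3058 bases beside 3599 for all tested, and 9 and 9 exons beside 10.

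The same comparison in the libraries labelled 320 μg/mL gave fewer calls and smaller differences, and what is said here of dose rests on the dose labels. There, limma called 1203 genes higher and 1921 lower of 11903 (10.1% and 16.1%, together 26.2%), and 62 and 113 past 2-fold (0.521% and 0.949%), counts that come from 6 other libraries. After median ratio scaling the split was even, 1445 higher and 1412 lower, and 78 and 80 past 2-fold. Without LiAg320 replicate 15, the library farthest from control, the unscaled counts were 1081 and 1557, and 56 and 104 past 2-fold. Over the 11814 genes tested at both doses the differences had an SD of 0.727 at 160 and 0.373 at 320 μg/mL and a Pearson's r of 0.127 across genes, which are not independent replicates. Of the genes called, 1854 were called at both doses, 31.2% of those at 160 and 59.6% of those at 320 μg/mL. Of these, 331 were higher at both, 822 lower at both, 283 higher at 160 and lower at 320, and 418 the reverse. A fit of all 15 libraries called the Li effect itself different between the doses for 4746 of 11952 genes (39.7%), with a larger value at 320 μg/mL for 20.2% and a smaller one for 19.5%.

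**Figure D4:**
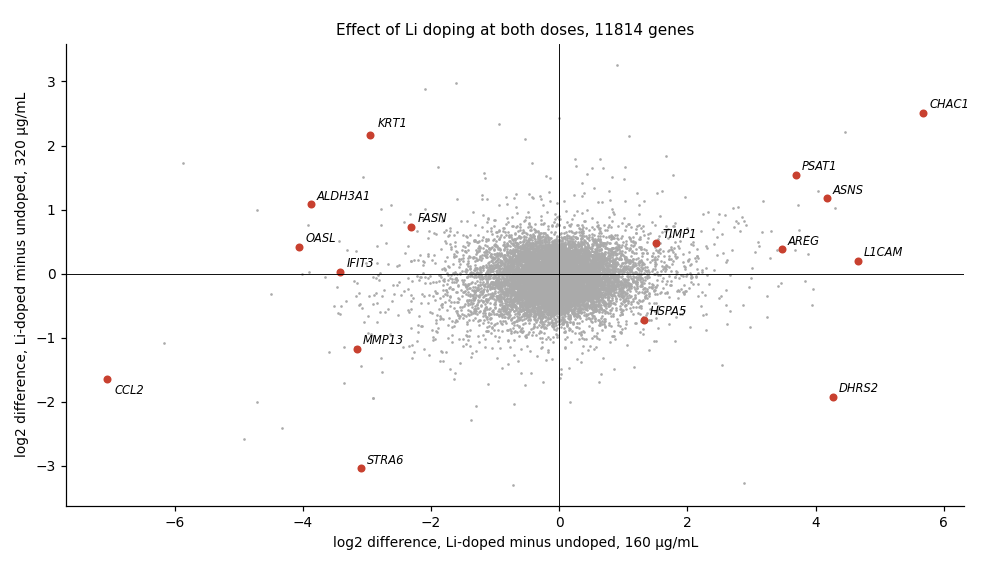
Each point is 1 of 11814 genes, with the log2 difference between the particles at 160 μg/mL on the horizontal and at 320 μg/mL on the vertical axis, both to the same scale, and 16 named genes in red. The cloud is wider along the horizontal axis (SD 0.727) than along the vertical (SD 0.373), and KRT1 and DHRS2 lie in opposite corners.

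Of 29 ATF4 targets tested at the higher dose, 18 were higher, none lower and 11 not called (median 0.49). ATF5 and NUPR1, which fell at 160 μg/mL, were called higher at 320 μg/mL (log2 difference 0.49 and 0.87). ASNS had a mean FPKM of 16.3 ± 1.39 (SD, n = 3) in Ag320 and 37 ± 3.77 in LiAg320, a log2 difference of 1.17 against 4.18 at 160 μg/mL (difference between doses -3.0, limma adjusted p = 8.99e-10). The mean of LiAg320 was thus well below the 206 ± 8.27 of LiAg160. Genes of the unfolded protein response went the other way, 12 of 23 lower and none higher at 320 μg/mL (median -0.27, and 10 lower after median ratio scaling), with HSPA5 at -0.72. Of 45 interferon-stimulated genes 4 were higher and 11 lower (median -0.09, and 5 and 8 after median ratio scaling), and IFIT3 was not called, at 32.2 ± 0.50 in Ag320 and 32.9 ± 2.16 in LiAg320 (difference between doses 3.44, limma adjusted p = 2.23e-11). Of 34 mitosis genes 19 were lower at 320 μg/mL, 14 not called and 1, PTTG1, higher (median -0.41). The difference between doses was called for 37 of the 45 interferon-stimulated and 32 of the 34 mitosis genes.

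Several genes reversed. The log2 difference of KRT1 was -2.95 at 160 and 2.17 at 320 μg/mL, where its mean FPKM was 45.5 ± 1.08 and 205 ± 5.66 (difference between doses 5.12, limma adjusted p = 3.12e-12). Cholesterol genes were higher at 320 μg/mL for 17 of 25 and lower for 1 (median 0.41). Respiratory chain genes were higher for 22 of 42 and none lower (median 0.30). STRA6 and MMP13 kept their direction, at -3.04 and -1.17. For the genes of the study, the difference at 320 μg/mL was 0.32 for TGFB1, 0.49 for TIMP1, -0.18 for COL1A1 (not called) and -0.72 for TGM2. The dose difference of TGFB1 was not called (-0.34, limma adjusted p = 0.0757).

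**Figure D5:**
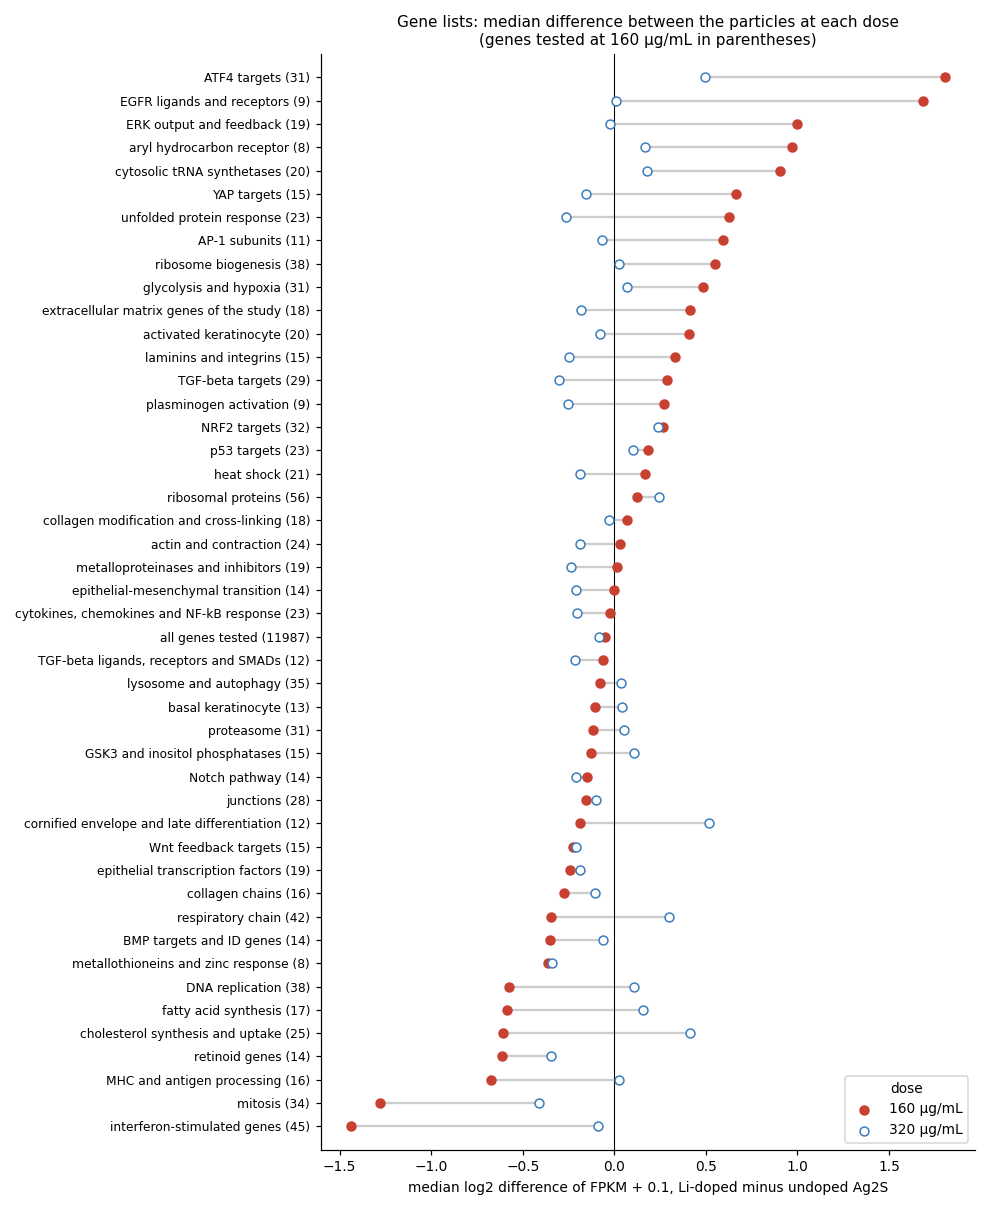
Median log2 difference between the particles (horizontal axis) in each gene list of 8 or more tested genes, filled for 160 and open for 320 μg/mL, with the number of genes tested at 160 μg/mL in parentheses. ATF4 targets are at the top and interferon-stimulated genes at the bottom at 160 μg/mL, and the open points lie closer to 0 in most lists.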

How the data were processed

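RNA of HaCaT cells was sequenced as paired reads (TruSeq libraries). Per the labels, the authors used TopHat, Cufflinks 2.1.1 and Cuffdiff, and deposited FPKM values per gene, normalized for gene length and library size, in 1 table per dose of 9 libraries each, with the same control values in both. For versions of the other tools, build and annotation, the sources used here give nothing, and all 17740 gene identifiers were found in GENCODE 29 (GRCh38), which gave the positions. FPKM carry no read counts, so depth is unknown and no counting interval can be given. Cufflinks divides reads between overlapping or near-identical genes by estimate, which can shift their values. Strand use in counting is not stated.

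The 9 libraries of control, Ag160 and LiAg160 were fitted together with limma 3.58.1 (R 4.3.3, trended eBayes, two-sided) on log2(FPKM + 0.1) for genes averaging at least 1 FPKM, with Benjamini-Hochberg adjustment over all of them and a call at 0.05. The 320 μg/mL table was fitted alike, and 1 fit of 15 libraries tested the difference of the Li effect between doses. The fit was tested on simulated data. Intervals are at 95%. Alternatives were pseudocounts of 1 and 0.01, no filter, a filter at 5 FPKM, median ratio scaling, the 6 libraries alone, robust eBayes, arrayWeights and leaving out each library.

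The members and the 53 gene lists were chosen with earlier results of these data known. Named are the 15 largest rises and falls among called genes whose libraries do not overlap and whose higher group averages 5 FPKM or more, up to 4 members of smallest p per list, and fixed members (TGFB1, TIMP1, COL1A1, TGM2, the matrix genes of the study, the Wnt, GSK3 and inositol, and metallothionein lists). Other genes, among them ATF4, ISG15, PLK1, EGFR, IRF9, HMOX1, CD68, S100A7, S100A8 and the exceptions within lists, were chosen after their values were seen. Promoters are RefSeq GRCh38.p14 windows. The tables also hold columns of the authors' own comparisons (fold changes and p-values), which were not used.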

Additional observations from a re-analysis of the deposited data

Results flagged for a closer look

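The effect of Li doping differed between 320 and 160 μg/mL for 4746 genes by limma, in a fit of all 15 libraries. Each value below is the log2 difference at 320 μg/mL minus that at 160 μg/mL, for genes named above whose difference between doses was called. Most of these genes were named for the size of their change at 160 μg/mL, and some passed the level filter only through LiAg160, so a large difference of the opposite sign is in part set by that choice.

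Of the genes that rose at 160 μg/mL, the difference was -6.27 for SPRR2D, -5.03 for LCE1F and -4.97 for PRR9, of the cornified envelope complex, and -5.82 for GDF15 and -3.17 for CHAC1, of the stress response. It was -4.34 for SLC2A3, -5.76 for RPLP0P2, -4.17 for NEURL1, -3.99 for SLCO4A1, -4.39 for KIF21B, -4.13 for CDH4, -4.45 for L1CAM, -3.28 for SH2D5 and -6.19 for DHRS2. TIMP1 had a difference of -1.03. DHRS2 turned direction, with a log2 difference of -1.92 at 320 μg/mL (limma adjusted p = 0.000525). Most of the others were too low to be tested at 320 μg/mL alone.

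Of the genes that fell at 160 μg/mL, the difference was 5.42 for CCL2 and 5.08 for CCL7, the neighbouring chemokine genes, 4.47 for OASL, 3.44 for IFIT3, 3.09 for RSAD2 and 1.65 for TNFSF10, of the interferon response, and 2.72 for MMP7 and 1.91 for MMP12. It was 7.6 for MT1DP, 5.71 for SLURP2, 4.18 for AMTN, 4.96 for ALDH3A1, 3.01 for IL13RA2, 3.94 for C10orf99, 2.9 for PDZK1IP1 and 0.68 for TGM2. Called in the opposite direction at 320 μg/mL were ALDH3A1 (log2 difference 1.08, limma adjusted p = 7.1e-05), SLURP2 (1.00), C10orf99 (0.51) and OASL (0.42). The log2 difference of CCL2 was -1.64 there, from a mean FPKM of 51.5 ± 5.69 in Ag320 to 16.4 ± 0.47 in LiAg320 (SD, n = 3). Where a group is listed at 0 (LCE1F, MT1DP), the size depends on the added 0.1.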

How the results depend on the processing

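The 6042 genes called stayed between 5258 and 6044 when 1 library was left out (2122 to 2520 higher, 3056 to 3610 lower), and the 1494 past 2-fold between 1413 and 1539 (597 to 744 higher, 788 to 854 lower). With arrayWeights 7043 genes were called (3006 higher, 4037 lower), outside that range. With the 6 libraries alone 5370 were called (2309 higher, 3061 lower). With a mean FPKM of at least 5 required, 934 genes were past 2-fold and 351 of them higher, and with no filter 1205 were higher past 2-fold, since fewer or more low genes were then tested. Against control, Ag160 had 2847 genes lower and 1683 after median ratio scaling. At 320 μg/mL, leaving out replicate 15, which stood apart, gave 2638 calls (1081 higher, 1557 lower, 56 and 104 past 2-fold). Genes not called that changed sign when 1 library was left out were COL4A6 (-0.0426 to 0.216), IMPA1 (-0.233 to 0.0838), ISYNA1 (-0.0532 to 0.213) and STAT2 (-0.341 to 0.002). With arrayWeights, IMPA1 was at 0.0086 and ISYNA1 at -0.0831. The causes were not tested. No paired analysis was possible because the groups share no replicate numbers. Depth is unknown, so the precision of low genes cannot be given beyond the spread of 3 libraries.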
